A study of Mus musculus with 12 samples.

Results

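In mice whose efferent ducts had been tied off, segment 1 of the epididymis was compared with its neighbour, segment 2. The comparison takes the 4 libraries that the count tables name as ligated segment 1 and ligated segment 2, 1 of each group in sequencing batch 3017 and 1 of each in batch 3097, out of 12 libraries in all. Every mouse was wild type (WT). In the ligated groups a 4-0 PDS suture closed the efferent ducts where they reach the caput, and the control groups had no ligation. Control segment 1 and control segment 2, with 2 libraries each, serve as the setting in which the same contrast was read in tissue that still receives testicular fluid. Each library is a pool of 2 mice made from 500 ng of RNA after selection of polyadenylated RNA, so the p-values measure the spread between pools. The sources used here give no strain, no age, no time after ligation, and no word on whether the pools of different segments share mice.

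The epididymis receives sperm and fluid from the testis through the efferent ducts. Its first stretch, the initial segment, is known to depend on factors carried in that fluid (lumicrine signalling): NELL2 from the testis binds the receptor tyrosine kinase ROS1 on the epithelium, and ERK signalling with the transcription factors ETV4 and ETV5 acts downstream. The efferent ducts themselves carry cells with motile cilia, which the epididymal epithelium is known to lack, beside cells that take up fluid. Segment 1 lies next to the ducts and segment 2 follows it.

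The 4 ligated libraries held 40256971 and 32955786 counts in segment 1 (batches 3017 and 3097) and 36352153 and 39650919 in segment 2, within the 30485275 to 42313728 of all 12. Levels below are CPM (counts scaled to a common library total) after TMM scaling, given in the order 3017, 3097 within each group. Mitochondrial transcripts took 2.14% and 2.60% of counts in ligated segment 1, against 2.14% and 2.88% in ligated segment 2. The tissue label held: the epididymal genes Gpx5 and Adam7 stood at 39360 and 34140 CPM and at 8701 and 9305 CPM in ligated segment 1, against 33810 and 45540 CPM and 9180 and 9987 CPM in ligated segment 2. Prm1, a protamine of sperm, was at 0.0700 and 0.0280 CPM in ligated segment 1 and at 0.0518 and 0.0974 CPM in ligated segment 2.

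One of the 4 libraries stood apart. Where the pair of libraries averaged 5 CPM or more, 39 genes were at least 8-fold higher in the batch 3017 library of ligated segment 2 than in its batch 3097 partner, and 1 was as much higher in the partner. The 2 libraries of ligated segment 1 differed by that much for 1 gene. In control segment 2 the counts were 11 and 8. At a 4-fold gap they were 66 and 35 in control segment 2, against 64 and 5 in ligated segment 2. The 39 genes summed to 149 and 173 CPM in ligated segment 1, and to 6124 CPM (batch 3017) and 217 CPM (batch 3097) in ligated segment 2. In ligated segment 3 they summed to 11160 and 3959 CPM, and 35 of the 39 were higher in both of its libraries than in the batch 3097 library of ligated segment 2. Rnase9, an epididymal member of the RNase A family, shows the pattern, with 9.68 and 9.57 CPM in ligated segment 1 and 1675 and 10.7 CPM in ligated segment 2, where ligated segment 3 had 3147 and 1010 CPM. Defb30, a beta-defensin, had 5.09 and 5.74 CPM in ligated segment 1 and 529 and 6.60 CPM in ligated segment 2. Epp13, an epididymal protein gene, had 48.2 and 48.0 CPM in ligated segment 1 and 1221 and 94.96 CPM in ligated segment 2. EdgeR's test between the segments over all 12 libraries called 0 of the 39 (8 at an unadjusted p under 0.05), the fit on the 6 ligated libraries called 1, and DESeq2 called 12, among them Rnase9, Defb30 and Epp13 (adjusted p = 0.024, 0.043 and 0.0499). Their median log2 fold change was -3.67 with all libraries and -0.04 without the batch 3017 library of ligated segment 2. The 39 were chosen as high in that library and low in its partner. The fall of the median without it follows from that choice, and so in part does any comparison with the partner. How the stretches of duct were divided among the pools was not tested.

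**Figure D1:**
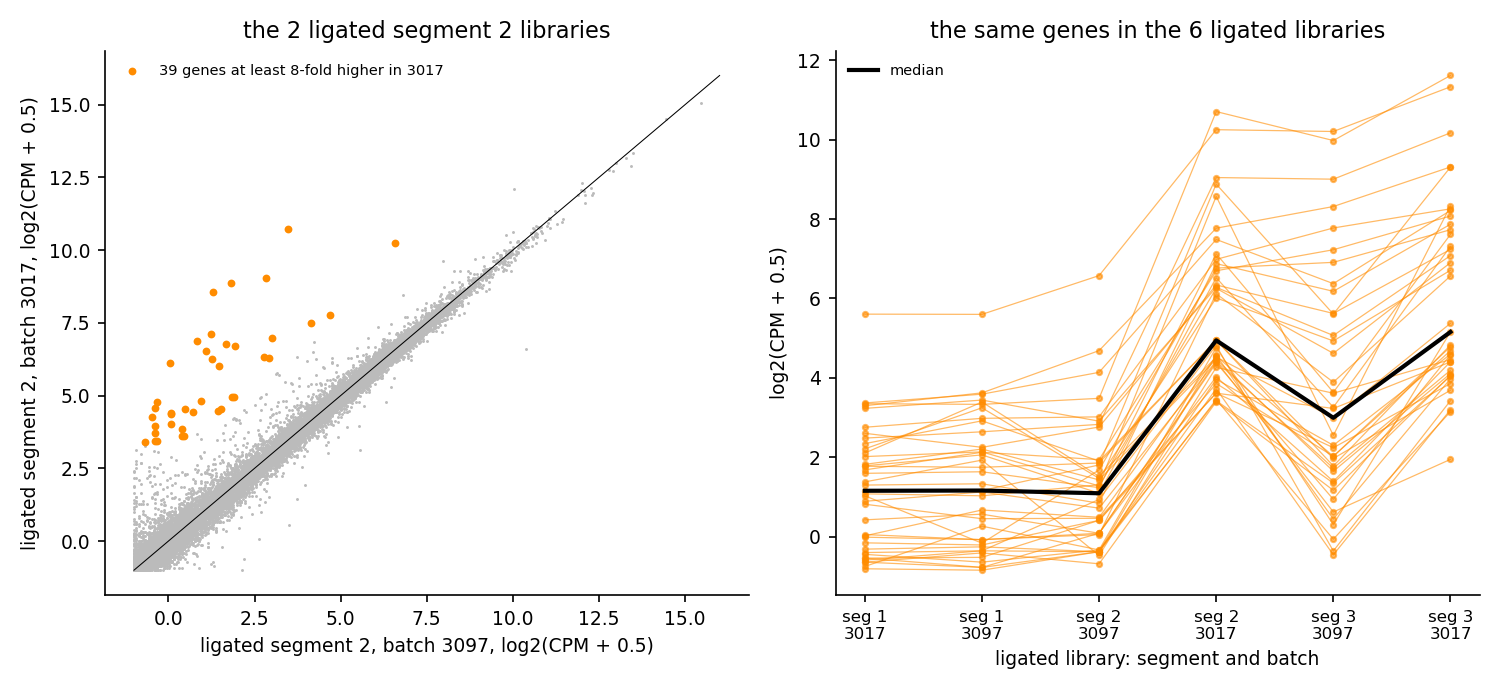
The left panel sets log2(CPM + 0.5) of the 2 ligated segment 2 libraries against each other for every gene tested, with the 39 genes at least 8-fold higher in batch 3017 in orange. The right panel follows those 39 genes through the 6 ligated libraries (black, median): they are low in ligated segment 1 and in the batch 3097 library of ligated segment 2, and high in the batch 3017 library and in ligated segment 3.

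Ligated segment 1 and ligated segment 2 were close to each other, and most of what did differ was higher in segment 1. With edgeR's quasi-likelihood test and Benjamini-Hochberg adjustment, 249 of 19213 genes passed an adjusted p of 0.05 (1.3%): 232 were higher (1.21%) and 17 lower (0.0885%) in segment 1. A change of at least 2-fold was seen in 200 (1.04%), of which 192 were higher (0.999%) and 8 lower (0.0416%). All 249 had the same direction in both batches, and in those 200 the 2 libraries of one segment lay on the same side of the 2 of the other. Both follow largely from the choice of genes by the test and by fold, and the shares over all genes were not taken. The count rests on few libraries: it was 192 without the batch 3017 and 7 without the batch 3097 library of ligated segment 1, and 2 without the batch 3017 and 0 without the batch 3097 library of ligated segment 2 (1933 genes at an unadjusted p under 0.05 in that last fit). Under each of these 4 fits all 249 genes kept their direction, though the fits reuse the libraries by which the genes were chosen. The 2 genes called without the batch 3017 library of segment 2, the one that stood apart, were Hnf4a and Lyz2. The gene lists below lost calls in the same way: without the batch 3017 library of ligated segment 1 the ciliated cell list had 11 calls and the cell division list 15, while without any 1 of the other 3 ligated libraries the ciliated cell list had 0 calls and the cell division list 0 or 1. DESeq2 called 527 genes, and edgeR fitted to the 6 ligated libraries alone called 1085, of which 665 were higher and 420 lower in segment 1. In what follows, a call or a pass with no tool named is one of edgeR's quasi-likelihood test over all 12 libraries. The list counts below are to be read against the shares over all genes. These were 1.3% called, 2619 of 19213 at an unadjusted p under 0.05, 2.743% by DESeq2 and 6.038% on the 6 ligated libraries. For lists of the sizes used here, 0 edgeR calls is near the share over all genes.

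The same contrast in control tissue gave 8294 genes (43.2%), 4056 higher (21.1%) and 4238 lower (22.1%) in control segment 1. The median absolute log2 fold change over all genes tested was 0.18 between the ligated segments and 0.49 between the control segments. The 2 contrasts share no library. Of the 249 genes called in ligated tissue, 162 were also called in control tissue, 154 of them in the same direction and 8 in the opposite one. The difference of the 2 contrasts itself passed the test for 3561 genes (18.5%), 1986 with a higher contrast in ligated tissue (10.3%) and 1575 with a lower one (8.2%), among them 76 of the 249. Among the 192 genes at least 2-fold higher in ligated segment 1, the mean of ligated segment 3 was lower still than that of ligated segment 2 in 82, lay between the 2 segments but nearer to segment 2 in 109, and exceeded segment 1 in 1.

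**Figure D2:**
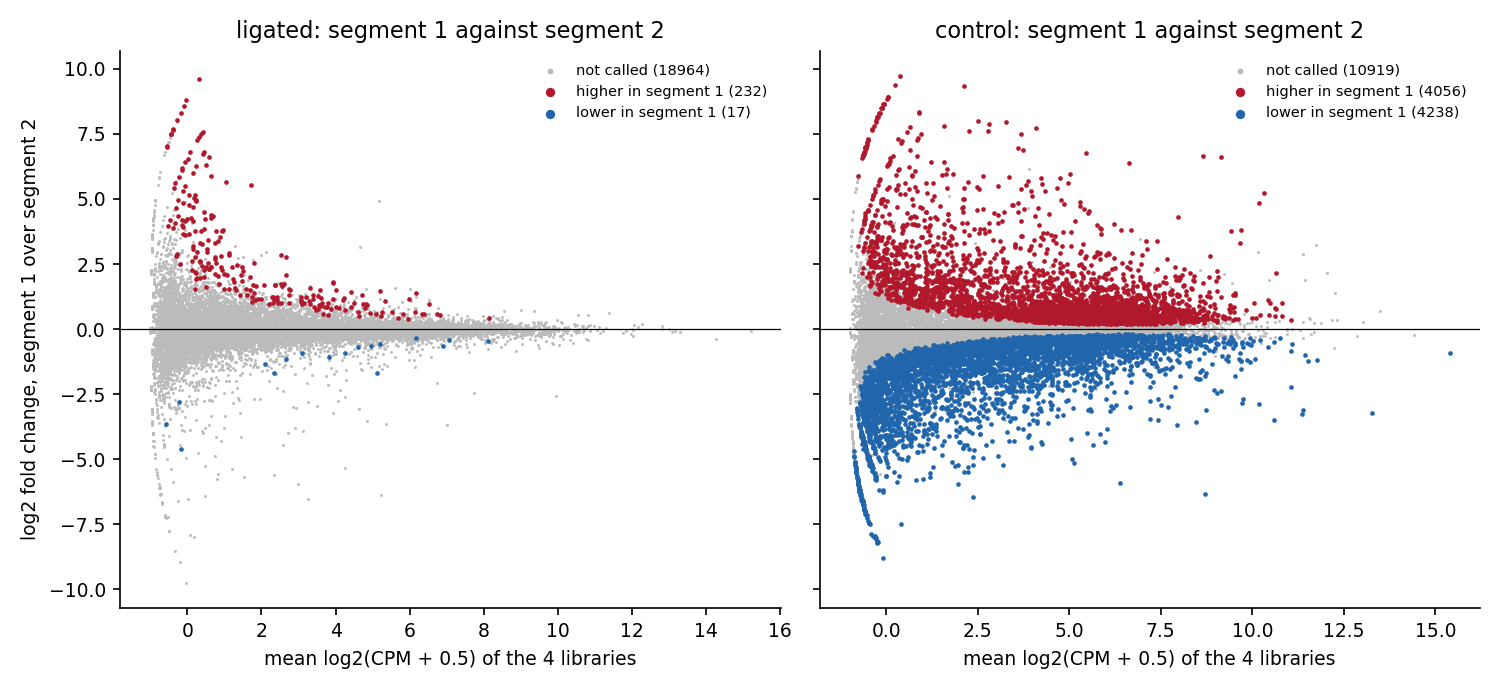
Each point is a gene; the horizontal axis gives its mean log2(CPM + 0.5) over the 4 libraries of the panel and the vertical axis its log2 fold change, segment 1 over segment 2, in ligated tissue (left) and control tissue (right). Called genes are red (higher) and blue (lower): 232 and 17 in ligated tissue, 4056 and 4238 in control tissue.

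Genes of the initial segment differed both ways between the ligated segments, with no edgeR calls. Of the 45 tested members of a list of initial segment and lumicrine genes, 0 passed edgeR's test, against 1.3% of all genes tested. For a list of this size 0 calls is near that share. At an unadjusted p under 0.05, 4 were higher and 3 lower, DESeq2 called 2 in each direction, and the fit on the 6 ligated libraries called Ovch2, Lcn8 and Srd5a1 higher and Ggt1, Defb48, Nxpe2 and Nxpe4 lower in segment 1. The list's median log2 fold change was -0.01 (0.00 with the 3 members at 0 counts in one segment set at their bound), against 0.00 for all genes tested, with single members between -6.38 and 4.94 and a median size of 0.71 (0.18 over all genes tested), while in control tissue it was 1.24 with 15 members higher and 9 lower in segment 1. The list summed to 8372 and 7753 CPM in ligated segment 1 and 8823 and 7438 CPM in ligated segment 2.

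Lcn8, a lipocalin of the initial segment, had 15.5 and 12.9 CPM in ligated segment 1 and 8.84 and 8.91 CPM in ligated segment 2. Its control levels were 13690 and 14230 CPM in segment 1 and 3320 and 210 CPM in segment 2, so the 4 ligated libraries lay far below the 4 control libraries, which themselves differed within segment 2. Cst8, which encodes the cystatin CRES, had 2.68 and 3.47 CPM in ligated segment 1, against 1.43 and 2.05 CPM in ligated segment 2. Rnase10, an RNase A family gene of the initial segment, had 1.66 and 1.48 CPM in ligated segment 1, against 3.14 and 2.56 CPM in ligated segment 2. The lipocalin gene Lcn9 had 0.956 and 0.896 CPM in ligated segment 1, against 1.74 and 2.41 CPM in ligated segment 2. EdgeR over all 12 libraries and DESeq2 called none of these 4 genes, and the fit on the 6 ligated libraries called Lcn8 (adjusted p = 0.026). The SE of the Lcn8 log2 fold change was 1.03 over all 12 libraries and 0.13 on the 6 ligated libraries.

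Members of the lumicrine pathway gave no calls either, where 1.3% of all genes tested were called. The receptor gene Ros1 had 149 and 180 CPM in ligated segment 1 and 193 and 171 CPM in ligated segment 2, and the groups overlapped (log2 fold change -0.14 ± 0.24 SE, adjusted p = 0.86). Etv4 had 0.303 and 0.112 CPM in ligated segment 1 and 0.337 and 0.877 CPM in ligated segment 2, where the control libraries had 234 and 165 CPM in segment 1 and 6.26 and 1.42 CPM in segment 2. Its segment contrast was 7.37 lower on the log2 scale in ligated than in control tissue (adjusted p = 0.014). Etv5 had 1.66 and 1.96 CPM in ligated segment 1, against 1.19 and 1.70 CPM in ligated segment 2. Of 23 tested feedback and target genes of ERK signalling, edgeR called 0 (2 higher and 0 lower at an unadjusted p under 0.05, 2 higher by DESeq2), against 17 higher and 3 lower between the control segments. The fit on the 6 ligated libraries called Ccnd1, Epha4 and Emp1 higher in ligated segment 1. Ovch2, an ovochymase gene of the initial segment, had 35.0 and 35.6 CPM in ligated segment 1 and 27.4 and 25.7 CPM in ligated segment 2. Its contrast, 3.79 on the log2 scale in control tissue, was 0.42 ± 0.33 in ligated tissue (adjusted p = 0.65), and the difference of the contrasts passed (adjusted p = 0.0048). Srd5a1, which reduces testosterone to dihydrotestosterone, had 12.1 and 9.85 CPM in ligated segment 1 and 6.14 and 3.94 CPM in ligated segment 2 (adjusted p = 0.29 by edgeR over all 12 libraries, 0.027 on the 6 ligated libraries and 0.042 by DESeq2).

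A few members differed widely in level, with calls that depended on the tool. Cst12, a cystatin gene, had 173 and 257 CPM in ligated segment 1 and 2.26 and 12.9 CPM in ligated segment 2 (adjusted p = 0.21 by edgeR over all 12 libraries, 0.14 on the 6 ligated libraries and 0.0025 by DESeq2). Adam28, a metalloprotease gene, had 62.3 and 84.3 CPM in ligated segment 1 and 8.66 and 7.89 CPM in ligated segment 2 (adjusted p = 0.33 by edgeR over all 12 libraries, 0.21 on the 6 ligated libraries and 0.095 by DESeq2). Nxpe2 went the other way, with 5.23 and 7.39 CPM in ligated segment 1 and 42.3 and 41.0 CPM in ligated segment 2 (adjusted p = 0.15 by edgeR over all 12 libraries, 0.037 on the 6 ligated libraries and 0.018 by DESeq2). In each of the 3 the libraries of the segments did not overlap. The 3 genes were chosen after their values were seen.

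Genes of the caput secretions ranged widely in level, and the most abundant of them were high in both ligated segments. Of 41 tested members of the caput list, edgeR called 0 (1 higher and 5 lower at an unadjusted p under 0.05; DESeq2 called 0 higher and 2 lower), with a median of -0.12 (-0.35 to 0.04 when 1 ligated library was left out), against 5 higher and 22 lower between the control segments. Gpx5, a secreted glutathione peroxidase, overlapped between the ligated segments at the levels given above (log2 fold change -0.09 ± 0.18, adjusted p = 0.89). Clu, which encodes the chaperone clusterin, had 18690 and 16250 CPM in ligated segment 1 and 23010 and 22320 CPM in ligated segment 2, where control segment 1 had 453 and 564 CPM and control segment 2 had 2252 and 10050 CPM. Its contrast was -0.37 ± 0.55 in ligated and -3.49 in control tissue (difference 3.13, adjusted p = 0.039). Spink12, a serine protease inhibitor gene, had 871 and 926 CPM in ligated segment 1 and 634 and 897 CPM in ligated segment 2, and its contrasts differed by 4.13 (adjusted p = 0.017). The gamma-glutamyl transferase gene Ggt1 had 260 and 224 CPM in ligated segment 1 and 381 and 325 CPM in ligated segment 2, and its contrasts differed by 2.59 (adjusted p = 0.028). Lcn5, a lipocalin of the caput, had 545 and 388 CPM in ligated segment 1 and 4411 and 1047 CPM in ligated segment 2 (adjusted p = 0.33), the higher value being that of the library that stood apart. The lipocalin gene Lcn2 had 2148 and 1677 CPM in ligated segment 1 and 1763 and 1709 CPM in ligated segment 2, which overlap.

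2 further genes of the epididymal epithelium differed in level between the ligated segments and were called by DESeq2 but not by edgeR. Crisp1, which encodes a sperm-coating protein, had 12.7 and 10.1 CPM in ligated segment 1 and 157 and 128 CPM in ligated segment 2. The control libraries had 910 and 845 CPM in segment 1 and 9.22 and 12.04 CPM in segment 2, the reverse order. The ligated contrast alone did not pass edgeR's test (-3.65 ± 0.79, adjusted p = 0.12 over all 12 libraries, 0.078 on the 6 ligated libraries and 2.3e-04 by DESeq2), while its difference from the control contrast did (-10.01, adjusted p = 0.0050). Cftr, a chloride and bicarbonate channel gene, had 31.4 and 40.9 CPM in ligated segment 1 and 9.38 and 23.3 CPM in ligated segment 2, against 211 and 194 CPM in control segment 1 and 5.54 and 8.85 CPM in control segment 2. Its ligated contrast was 1.22 ± 0.31 (adjusted p = 0.14 by edgeR over all 12 libraries, 0.071 on the 6 ligated libraries and 5.6e-04 by DESeq2) and lay 3.66 below the control contrast (adjusted p = 0.0035).

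**Figure D3:**
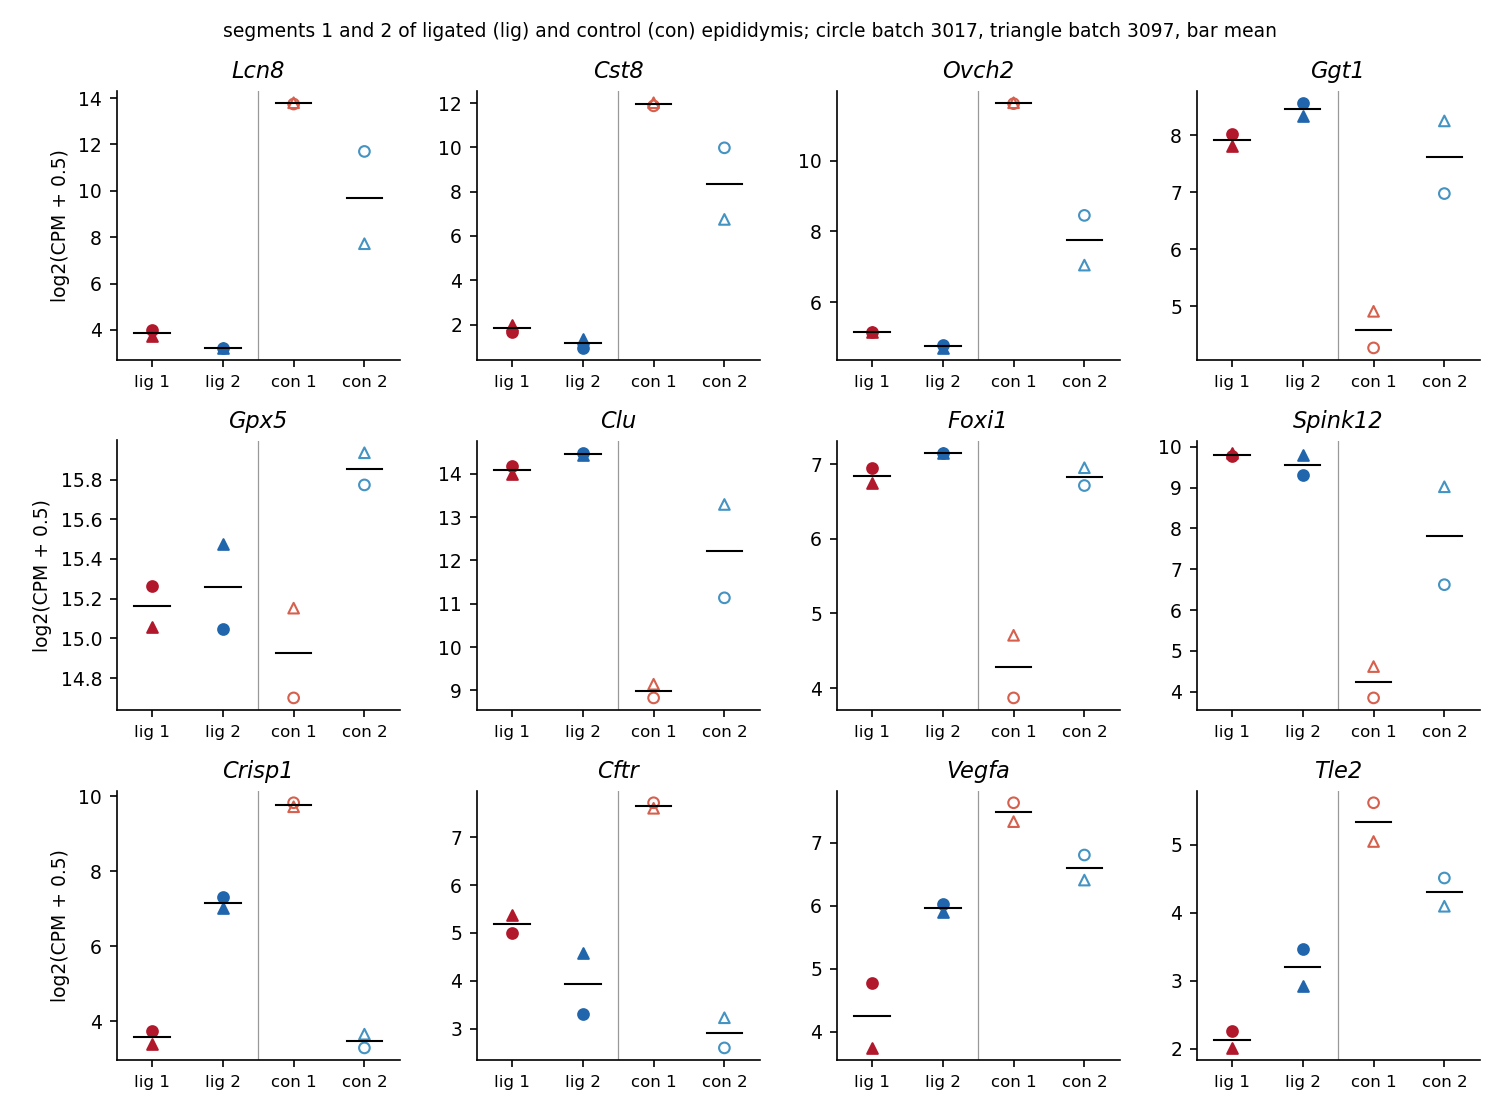
Log2(CPM + 0.5) of 12 genes in each library of ligated segment 1 (lig 1), ligated segment 2 (lig 2), control segment 1 (con 1) and control segment 2 (con 2); circles are batch 3017, triangles batch 3097 and bars the mean of 2 libraries, and each panel has its own vertical range. The initial segment genes Lcn8, Cst8 and Ovch2 lie low in both ligated groups, Ggt1, Clu, Foxi1 and Spink12 lie high in both, and Vegfa and Tle2 are lower in lig 1 than in lig 2 but higher in con 1 than in con 2.

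Of the lists with at least 10 tested members, genes of ciliated cells had the largest share of calls. Of 29 tested markers of the ciliated cells of efferent ducts, 16 were higher in ligated segment 1 and 0 lower (0 also at an unadjusted p under 0.05 and by DESeq2), against 1.21% higher over all genes tested. All 29 had a positive log2 fold change, with a median of 2.44. DESeq2 called 17 and the fit on the 6 ligated libraries 20. Without the batch 3017 library of ligated segment 2 the median was 2.20. Over the whole list the summed level was 259 and 250 CPM in ligated segment 1 and 182 and 169 CPM in ligated segment 2, with 7 members higher and 4 lower between the control segments. The difference of the contrasts passed the test for 14 members, all higher in ligated tissue. In tissue RNA, more ciliated cells in a sample and more RNA of these genes per cell cannot be told apart, and the same holds for the other cell types below; whether stretches of efferent duct were included in segment 1 was not tested.

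Foxj1, the master transcription factor of motile cilia, had 12.9 and 16.5 CPM in ligated segment 1 and 2.36 and 1.95 CPM in ligated segment 2 (log2 fold change 2.77 ± 0.29, adjusted p = 0.0080). Both segment 1 libraries were well above both segment 2 libraries. Ligated segment 3 had 0.812 and 1.37 CPM, and the control libraries had 7.66 and 5.07 CPM in segment 1 and 2.07 and 1.93 CPM in segment 2. Ccdc153, a gene of motile cilia, had 9.45 and 18.0 CPM in ligated segment 1 and 0.233 and 0.341 CPM in ligated segment 2 (log2 fold change 5.53 ± 0.43, adjusted p = 0.0038), and its contrast was larger in ligated than in control tissue by 2.17 (adjusted p = 0.037). Dynein heavy chains drive the beat of cilia. Dnah5 had 3.24 and 5.18 CPM in ligated segment 1 and 0.441 and 0.657 CPM in ligated segment 2 (2.92 ± 0.51, adjusted p = 0.038). Dnah9 had 2.68 and 3.86 CPM in ligated segment 1 and 0.0259 and 0.292 CPM in ligated segment 2 (adjusted p = 0.015).

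Tekt1, which encodes the tektin 1 of ciliary microtubules, had 2.26 and 2.94 CPM in ligated segment 1 and 0.104 and 0.122 CPM in ligated segment 2 (4.51 ± 0.50, adjusted p = 0.010). In control tissue it did not separate the segments (-0.02), and the difference of 4.53 passed (adjusted p = 0.0028). Hydin, a gene of the central pair of motile cilia, rested on 74 and 111 counts in ligated segment 1 and 1 and 0 counts in ligated segment 2, and Sntn (sentan, of the ciliary tip) on 55 and 117 counts against 1 and 1. For Sntn the ratio of the group levels was 87.2 with a 95% counting interval of 23.8 to 725. Fam183b had 83 and 120 counts in ligated segment 1 and 0 and 1 in ligated segment 2. Cdhr3, a cadherin of ciliated cells, had 121 and 130 counts in ligated segment 1 and 2 and 1 in ligated segment 2. The contrast differed between ligated and control tissue for Hydin (adjusted p = 0.012) and Fam183b (adjusted p = 0.020), and the test was not passed by Sntn (adjusted p = 0.78) and Cdhr3 (adjusted p = 0.17). Cfap43, needed for the structure of the ciliary shaft, had 2.80 and 3.64 CPM in ligated segment 1 and 0.0518 and 0.268 CPM in ligated segment 2 (adjusted p = 0.025).

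Not every ciliary gene passed the test. Rsph1, a radial spoke gene, had 21.6 and 24.1 CPM in ligated segment 1 and 18.5 and 22.3 CPM in ligated segment 2 (0.17 ± 0.11, adjusted p = 0.56). Mcidas, a regulator at the start of the multiciliated programme, had 5.13 and 4.06 CPM in ligated segment 1 and 4.85 and 4.36 CPM in ligated segment 2, and its groups overlapped. Gmnc, which acts with it, had 21 and 15 counts in ligated segment 1 and 3 and 0 in ligated segment 2 and did not pass the test (adjusted p = 0.14). Hnf4a, a transcription factor of absorptive epithelia, had 2.54 and 3.58 CPM in ligated segment 1 and 0.0259 and 0 CPM in ligated segment 2 (adjusted p = 0.0038). It rests on 109 and 128 counts in segment 1 and 1 count in segment 2, a ratio of 240 with a 95% counting interval of 42.7 to 9526. Control segment 1 also held it, at 1.80 and 2.53 CPM, against 0.0344 and 0.0644 CPM in control segment 2. Aqp1, a water channel of efferent duct cells and of endothelium, had 21.1 and 32.1 CPM in ligated segment 1 and 7.41 and 11.6 CPM in ligated segment 2 (1.49 ± 0.25, adjusted p = 0.037), and was the 1 member called by edgeR, against 2 by DESeq2, of 10 tested markers of absorptive efferent duct cells.

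Because the ciliary genes moved together, the 300 bases around their RefSeq gene starts (GRCm38.p6; 250 before to 50 after) were searched for the X-box, the site of RFX factors that act on ciliary genes. The short form GTTGCC, on either strand, was in 8 of the 13 called ciliary genes that have a promoter in the RefSeq table, in 38 of 180 genes called higher (21.1%) and in 1960 of 12925 genes tested (15.2%). The full palindrome of the X-box was in none of the 13 and in 2 of the 12925. In all, 12 motifs were searched after the lists had been read, and a match is a description of letters only. The called ciliary genes with the smallest adjusted p that hold the short form are shown, 5′ to 3′ on the gene's strand, with GTTGCC or its reverse complement in capitals.

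Tekt1, chr11:72361833-72362132, minus strand: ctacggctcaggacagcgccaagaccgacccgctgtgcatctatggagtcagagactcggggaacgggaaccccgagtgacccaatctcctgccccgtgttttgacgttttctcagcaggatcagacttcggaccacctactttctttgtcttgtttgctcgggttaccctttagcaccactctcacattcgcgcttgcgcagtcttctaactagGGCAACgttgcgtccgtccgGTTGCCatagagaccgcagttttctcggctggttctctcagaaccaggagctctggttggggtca

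Sntn, chr14:13670626-13670925, plus strand: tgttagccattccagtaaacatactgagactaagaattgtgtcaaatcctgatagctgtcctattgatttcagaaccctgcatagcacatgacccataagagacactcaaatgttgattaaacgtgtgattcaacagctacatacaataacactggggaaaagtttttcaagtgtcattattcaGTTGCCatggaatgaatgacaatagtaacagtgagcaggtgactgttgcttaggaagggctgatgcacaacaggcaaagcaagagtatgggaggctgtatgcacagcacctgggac

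Fam183b, chr11:58801911-58802210, minus strand: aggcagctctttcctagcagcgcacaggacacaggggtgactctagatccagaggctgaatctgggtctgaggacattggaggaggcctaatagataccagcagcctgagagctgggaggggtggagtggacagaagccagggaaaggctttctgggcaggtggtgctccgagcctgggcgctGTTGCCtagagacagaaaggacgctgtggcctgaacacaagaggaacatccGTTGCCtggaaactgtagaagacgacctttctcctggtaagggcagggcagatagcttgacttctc

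Tekt1 has 1 match on each strand, beginning 35 and 15 bases before the start, Sntn has 1, beginning 66 bases before it, and Fam183b has 2, beginning 67 and 16 bases before it.

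Genes of cell division were higher in ligated segment 1. Of 28 tested members, 10 were higher and 0 lower (0 also at an unadjusted p under 0.05 and by DESeq2), with a median log2 fold change of 1.49. At an unadjusted p under 0.05, 25 were higher, DESeq2 called 18 and the fit on the 6 ligated libraries 17. The list summed to 271 and 432 CPM in ligated segment 1 and 204 and 239 CPM in ligated segment 2. The 2 libraries of segment 1 were unequal, and the median was 0.91 without the batch 3097 library of ligated segment 1, against 1.56 without the batch 3017 library of ligated segment 2. Between the control segments 20 members were higher and 1 lower in segment 1, and the difference of the contrasts passed for 2.

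Top2a, the topoisomerase that untangles sister chromatids, had 7.33 and 23.0 CPM in ligated segment 1 and 1.79 and 2.07 CPM in ligated segment 2 (2.86 ± 0.38, adjusted p = 0.021). The within-batch log2 ratios were 1.77 in batch 3017 and 3.19 in batch 3097. Cenpf, a kinetochore gene, had 1.91 and 7.92 CPM in ligated segment 1 and 0.311 and 0.341 CPM in ligated segment 2 (adjusted p = 0.043). The mitotic cyclin genes were low but alike: Ccnb1 had 1.66 and 4.65 CPM in ligated segment 1 and 0.337 and 0.828 CPM in ligated segment 2 (adjusted p = 0.019). Ccnb2 had 1.03 and 3.33 CPM in ligated segment 1 and 0.181 and 0.244 CPM in ligated segment 2 (adjusted p = 0.019). Cdk1, the mitotic kinase, had 1.59 and 5.35 CPM in ligated segment 1 and 0.0778 and 0.609 CPM in ligated segment 2 (adjusted p = 0.021). Ube2c, of the anaphase-promoting complex, had 1.31 and 4.14 CPM in ligated segment 1 and 0.181 and 0.292 CPM in ligated segment 2 (adjusted p = 0.014). In each of these genes the batch 3097 library of segment 1 was the highest of the 4. Rrm1, a subunit of ribonucleotide reductase, was the most abundant of the members named here, with 36.9 and 51.5 CPM in ligated segment 1 and 28.3 and 34.2 CPM in ligated segment 2 (0.49 ± 0.09, adjusted p = 0.034). Mki67, the Ki-67 gene, had 4.53 and 20.4 CPM in ligated segment 1 and 0.855 and 2.09 CPM in ligated segment 2, and was called by DESeq2 (adjusted p = 1.5e-08) and on the 6 ligated libraries (0.023) but not by edgeR over all 12 libraries (0.076).

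Promoters of cell-cycle genes are known for the CHR element, TTTGAA, and for CCAAT boxes. TTTGAA, on either strand, was in 5 of the 8 called division genes with a promoter in the table and in 15.1% of genes tested, and CCAAT in 7 of the 8 and in 42.0% of genes tested. The 3 with the smallest adjusted p that hold TTTGAA are shown in the same way, with both motifs and their reverse complements in capitals; motifs that overlap form 1 run of capitals.

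Ube2c, chr2:164769679-164769978, plus strand: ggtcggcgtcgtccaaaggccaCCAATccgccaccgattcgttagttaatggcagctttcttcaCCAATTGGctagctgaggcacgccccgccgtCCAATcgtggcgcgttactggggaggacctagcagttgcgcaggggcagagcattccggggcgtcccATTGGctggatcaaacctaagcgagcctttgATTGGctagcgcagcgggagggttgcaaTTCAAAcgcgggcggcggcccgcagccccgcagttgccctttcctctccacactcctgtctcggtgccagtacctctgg

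Ccnb2, chr9:70421505-70421804, minus strand: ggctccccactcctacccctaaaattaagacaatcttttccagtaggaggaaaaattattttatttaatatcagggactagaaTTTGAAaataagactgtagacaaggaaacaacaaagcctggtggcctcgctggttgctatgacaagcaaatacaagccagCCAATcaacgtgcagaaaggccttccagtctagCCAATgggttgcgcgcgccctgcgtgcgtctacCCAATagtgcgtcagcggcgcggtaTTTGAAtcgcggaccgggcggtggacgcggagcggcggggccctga

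Top2a, chr11:99024140-99024439, minus strand: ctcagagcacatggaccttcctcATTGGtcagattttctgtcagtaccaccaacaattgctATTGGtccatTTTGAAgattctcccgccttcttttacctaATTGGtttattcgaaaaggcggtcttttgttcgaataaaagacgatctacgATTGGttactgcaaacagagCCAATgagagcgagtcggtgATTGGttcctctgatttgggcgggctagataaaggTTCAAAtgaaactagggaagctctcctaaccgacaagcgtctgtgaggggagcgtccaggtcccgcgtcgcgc

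TTTGAA has 1 match in Ube2c, beginning 29 bases before the start. It has 2 in Top2a, beginning 179 and 23 bases before the start, and 2 in Ccnb2, beginning 167 bases before and 5 after it. The CCAAT matches number 6 in Ube2c, 3 in Ccnb2 and 6 in Top2a.

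**Figure D4:**
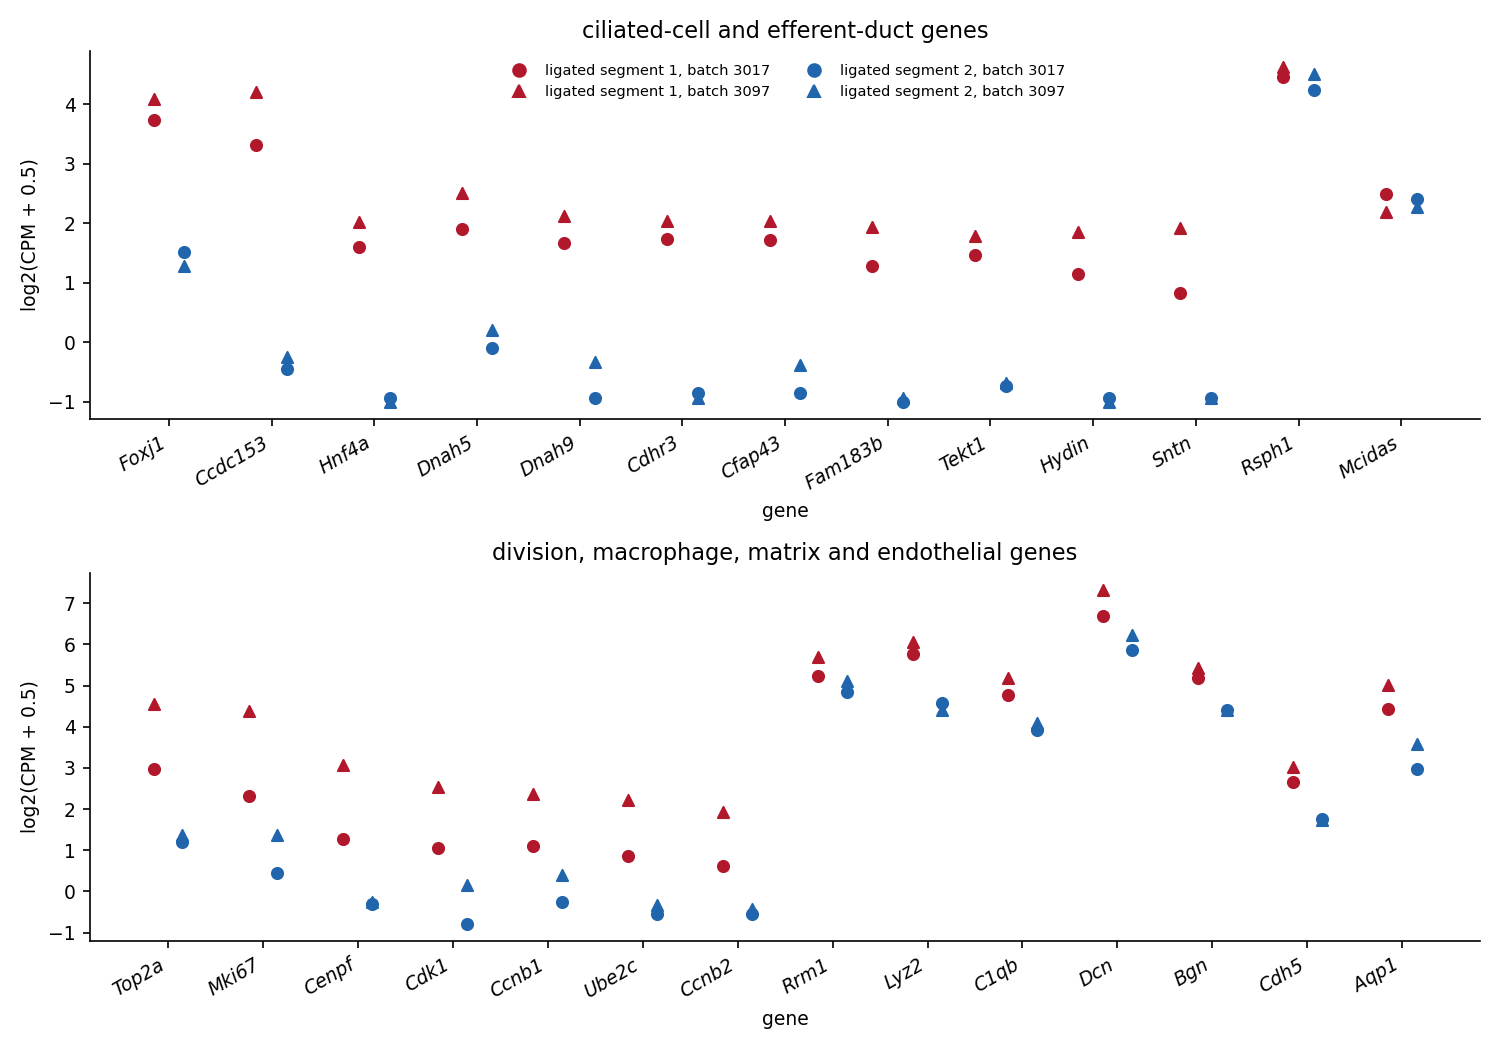
Log2(CPM + 0.5) of ciliary genes (top) and of division, macrophage, matrix and endothelial genes (bottom) in the ligated libraries, with segment 1 in red to the left of segment 2 in blue, circles for batch 3017 and triangles for batch 3097. Red lies above blue for each gene but Rsph1 and Mcidas, whose segments are close or overlap, and the red triangle of the division genes is the highest point of its gene.

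Some genes of fibroblasts and matrix, macrophages and endothelium were also higher in ligated segment 1. Of 29 fibroblast and matrix genes 6 were higher and 0 lower (17 and 0 at an unadjusted p under 0.05; 11 and 0 by DESeq2), with a median of 0.61. Dcn, the matrix proteoglycan decorin, had 103 and 161 CPM in ligated segment 1 and 57.7 and 75.1 CPM in ligated segment 2 (0.98 ± 0.12, adjusted p = 0.011). In control tissue it was lower in segment 1 (-0.61, adjusted p = 0.0036), and the contrasts differed by 1.58 (adjusted p = 9.4e-04). Bgn, the related proteoglycan biglycan, had 35.9 and 42.7 CPM in ligated segment 1 and 20.8 and 20.7 CPM in ligated segment 2 (0.92 ± 0.11, adjusted p = 0.010). Igfbp6, which binds insulin-like growth factors, had 22.5 and 34.2 CPM in ligated segment 1 and 12.3 and 11.9 CPM in ligated segment 2 (adjusted p = 0.011). For Bgn and Igfbp6 too the contrast was larger in ligated than in control tissue, by 0.83 and 1.36 (adjusted p = 0.0063 and 0.0039). The collagen genes called were Col14a1, Col3a1 and Col1a1, with log2 fold changes of 0.86, 0.82 and 0.80. Over the list, 8 members had a higher contrast in ligated than in control tissue and 0 a lower one.

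Of 27 macrophage and dendritic cell genes 5 were higher and 0 lower (15 and 0 at an unadjusted p under 0.05; 8 and 0 by DESeq2), with a median of 0.74. Lyz2, the lysozyme of macrophages, had 54.5 and 66.3 CPM in ligated segment 1 and 23.3 and 20.7 CPM in ligated segment 2 (1.45 ± 0.13, adjusted p = 0.0044); its near-identical copy Lyz1 can share its reads. The genes of the complement subunit C1q rose together. C1qb had 26.8 and 35.9 CPM in ligated segment 1 and 14.7 and 16.7 CPM in ligated segment 2 (0.99 ± 0.11, adjusted p = 0.010), and the log2 fold changes of C1qa and C1qc were 0.86 and 1.11. Fcgr3, an Fc receptor, had 6.11 and 8.65 CPM in ligated segment 1 and 2.88 and 3.36 CPM in ligated segment 2 (adjusted p = 0.038). The difference from the control contrast passed for 1 of the 27. Ctss, the lysosomal protease cathepsin S, had 51.7 and 63.3 CPM in ligated segment 1 and 25.1 and 29.8 CPM in ligated segment 2 (1.07 ± 0.17, adjusted p = 0.029). It was the 1 edgeR call of 41 lysosome genes, of which 11 had a positive and 30 a negative log2 fold change. At an unadjusted p under 0.05, 6 lysosome genes were higher and 7 lower, and DESeq2 called 1 higher and 3 lower. The complement gene C7 had 19.8 and 36.7 CPM in ligated segment 1 and 8.06 and 7.89 CPM in ligated segment 2 (1.79 ± 0.24, adjusted p = 0.015), with a contrast 2.04 above that of control tissue (adjusted p = 0.0048). C7 was the 1 edgeR call of 21 genes of a complement list, of which 10 had a positive and 11 a negative log2 fold change. At an unadjusted p under 0.05, 8 of the 21 were higher and 1 lower, and DESeq2 called 2 higher and 0 lower.

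Of 19 endothelial genes 3 were higher and 0 lower (14 and 0 at an unadjusted p under 0.05; 5 and 0 by DESeq2), with a median of 0.81, against 16 higher and 1 lower and a median of 1.72 between the control segments. Cdh5, the cadherin of vessel walls, had 5.83 and 7.67 CPM in ligated segment 1 and 2.88 and 2.85 CPM in ligated segment 2 (1.24 ± 0.22, adjusted p = 0.036). Tie1, an endothelial receptor, had 4.71 and 5.68 CPM in ligated segment 1 and 1.84 and 2.80 CPM in ligated segment 2 (adjusted p = 0.032), and its contrast was 0.92 below that of control tissue (adjusted p = 0.049). The list summed to 113 and 140 CPM in ligated segment 1 and 66.9 and 79.0 CPM in ligated segment 2. Of 17 tested smooth muscle genes, which had a median of -0.08, edgeR called 0 (1 higher and 0 lower at an unadjusted p under 0.05, 0 by DESeq2), and Acta2, smooth muscle actin, had 162 and 196 CPM in ligated segment 1 and 163 and 217 CPM in ligated segment 2.

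Of 14 basal cell markers edgeR called 1 higher (5 higher and 0 lower at an unadjusted p under 0.05), DESeq2 2 and the fit on the 6 ligated libraries 3 (Krt14, Itga6 and Cldn1). Krt14, a keratin of basal cells, had 109 and 153 CPM in ligated segment 1 and 76.3 and 99.2 CPM in ligated segment 2 (0.57 ± 0.10, adjusted p = 0.038). Krt5, its partner, had 123 and 174 CPM in ligated segment 1 and 110.4 and 155 CPM in ligated segment 2 and was not called (adjusted p = 0.46). Of 18 clear and narrow cell genes DESeq2 called 2 higher, and the fit on the 6 ligated libraries called Car2 and Insrr higher and Atp6v1b1, Atp6v1g3 and Adgrf5 lower. The 1 edgeR call over all 12 libraries was Car2, a carbonic anhydrase, with 38.0 and 43.2 CPM in ligated segment 1 and 16.2 and 16.5 CPM in ligated segment 2 (1.31 ± 0.17, adjusted p = 0.012). Foxi1, the transcription factor of these cells, had 124 and 107 CPM in ligated segment 1 and 142 and 142 CPM in ligated segment 2 (adjusted p = 0.61). In control tissue Foxi1 was 2.54 lower on the log2 scale in segment 1, and the contrasts differed by 2.25 (adjusted p = 0.0035).

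Lipid genes gave a few calls, each higher in ligated segment 1. Of 24 cholesterol synthesis genes 3 were higher and 0 lower (14 and 0 at an unadjusted p under 0.05; 7 and 0 by DESeq2). Hmgcs1, the synthase that makes HMG-CoA, had 286 and 384 CPM in ligated segment 1 and 203 and 292 CPM in ligated segment 2 (0.44 ± 0.08, adjusted p = 0.042); its libraries overlapped between the segments, while within each batch segment 1 was higher, with log2 ratios of 0.49 and 0.40. Msmo1, a sterol oxidase, had 125 and 146 CPM in ligated segment 1 and 76.5 and 111 CPM in ligated segment 2 (0.55 ± 0.10, adjusted p = 0.038). Mvd, the decarboxylase of the mevalonate pathway, was 0.43 ± 0.09 higher (adjusted p = 0.049). Between the control segments 18 of the 24 were higher, and the difference of the contrasts passed for 8 members lower and 1 higher. Among 23 genes of lipid transport edgeR called 3 (DESeq2 4, the 6 ligated libraries 7): Apoc1 (33.9 and 35.9 CPM in ligated segment 1, 10.2 and 15.4 CPM in ligated segment 2), the phospholipid transfer protein gene Pltp and the lipoprotein lipase gene Lpl, each higher. Lpl had 7.33 and 9.40 CPM in ligated segment 1 and 2.02 and 3.17 CPM in ligated segment 2 (1.69 ± 0.29, adjusted p = 0.032).

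**Figure D5:**
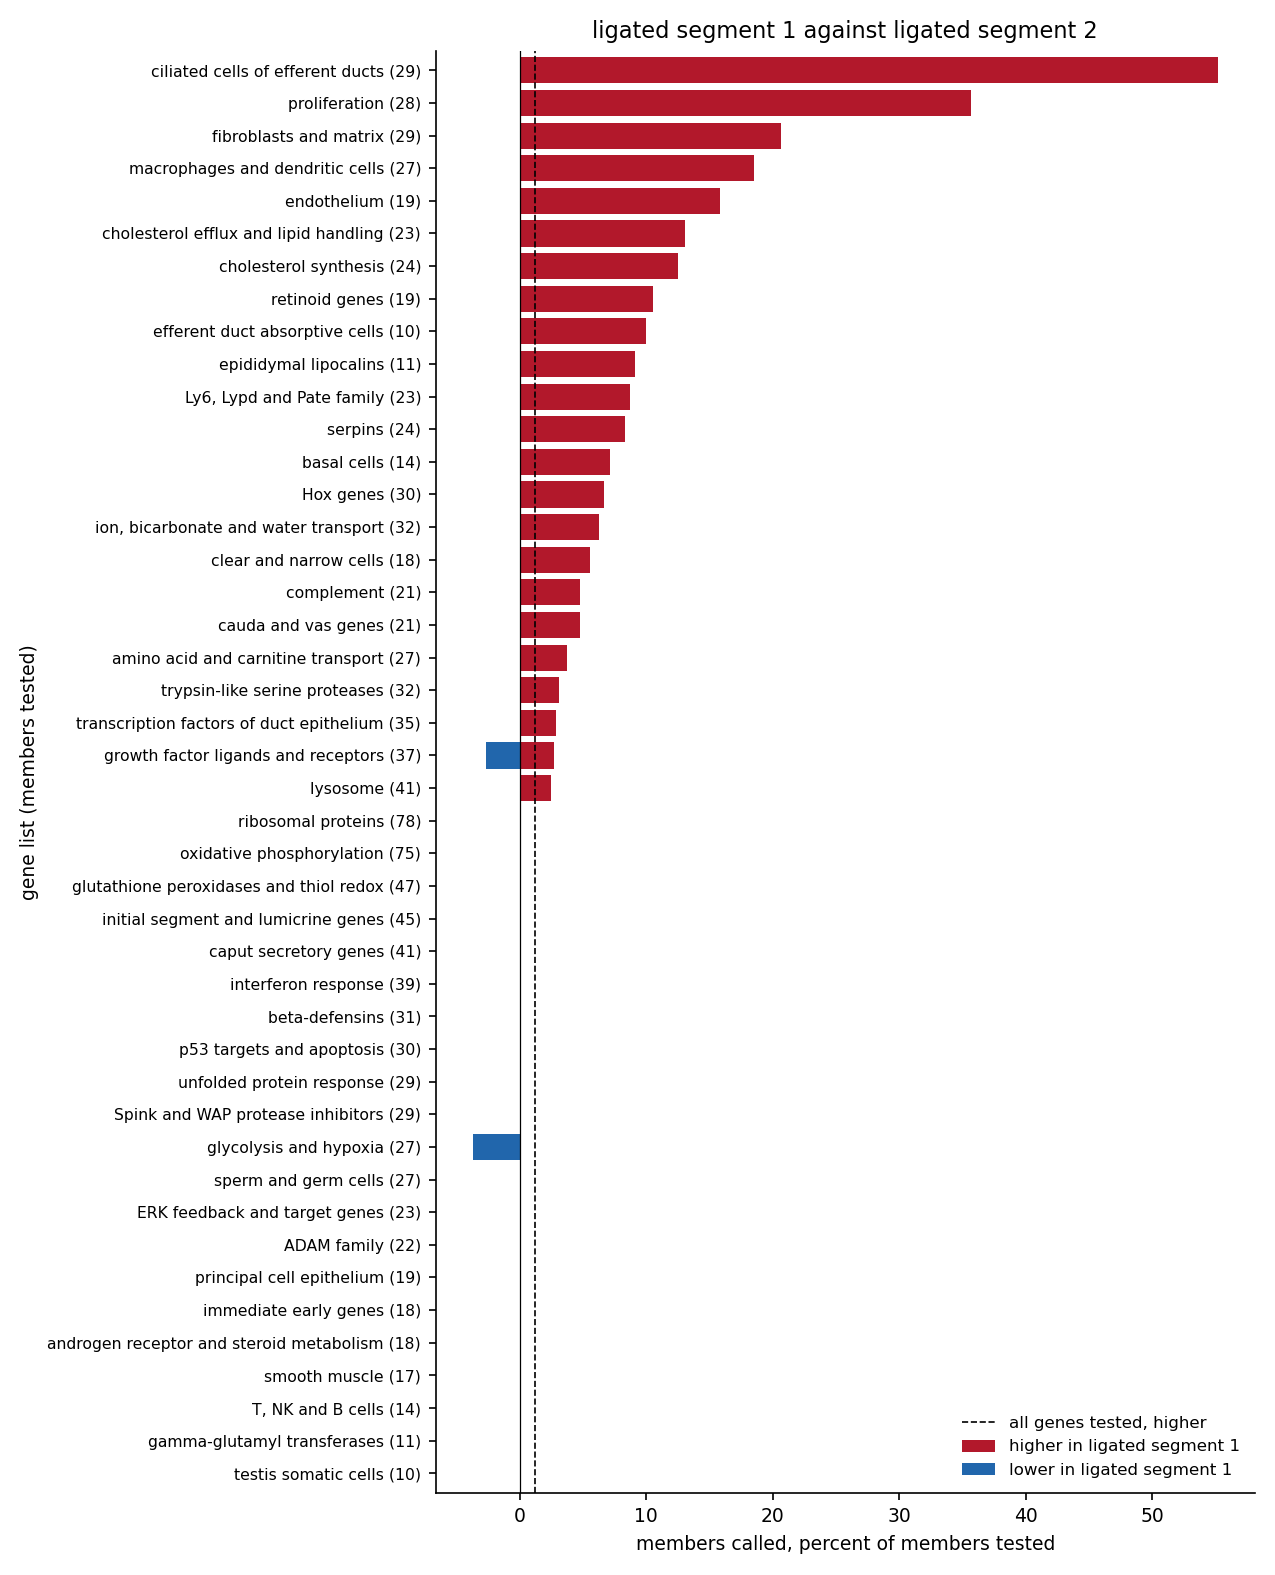
Bars give the members of each gene list called in ligated segment 1 against ligated segment 2, as a percent of the members tested (number in brackets; lists with at least 10), with members higher in segment 1 in red to the right and members lower in blue to the left. The dashed line marks the 1.21% of all genes tested that were higher; the ciliary list, with 16 of 29, and the division list, with 10 of 28, reach farthest.

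The genes with the largest differences above 5 CPM included several beyond these lists. Fndc7, which encodes a fibronectin-domain protein, had 4.83 and 8.34 CPM in ligated segment 1 and 0.104 and 0.146 CPM in ligated segment 2 (5.66 ± 0.64, adjusted p = 0.011). Ppp1r1b, the phosphatase inhibitor DARPP-32, had 6.21 and 7.36 CPM in ligated segment 1 and 1.27 and 1.05 CPM in ligated segment 2 (2.53 ± 0.37, adjusted p = 0.019); an antisense gene overlaps it. Its contrast was 2.46 in control tissue. Igfbp4, which binds insulin-like growth factors, had 21.7 and 32.8 CPM in ligated segment 1 and 7.36 and 8.52 CPM in ligated segment 2 (1.77 ± 0.16, adjusted p = 0.0046). Tm4sf1, a membrane protein gene, had 8.66 and 11.6 CPM in ligated segment 1 and 2.23 and 3.94 CPM in ligated segment 2 (1.73 ± 0.24), with the same contrast, 1.72, in control tissue. Itgbl1, an integrin-like gene, and Naip1, an inflammasome receptor whose close relatives can share its reads, had log2 fold changes of 2.09 and 2.00. Was, the actin regulator of blood cells, had 9.15 and 9.63 CPM in ligated segment 1 and 3.91 and 2.00 CPM in ligated segment 2 (1.75 ± 0.32, adjusted p = 0.044), and its contrast was 2.73 below that of control tissue (adjusted p = 0.0058). Clec7a, the receptor dectin-1 of myeloid cells, had 6.51 and 10.6 CPM in ligated segment 1 and 2.36 and 2.78 CPM in ligated segment 2, a contrast 1.18 above that of control tissue (adjusted p = 0.032).

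The most abundant genes with at least a 2-fold increase were Cpe and Apod. Cpe, the carboxypeptidase that trims peptide hormones, had 95.6 and 143 CPM in ligated segment 1 and 37.0 and 53.8 CPM in ligated segment 2 (1.39 ± 0.17, adjusted p = 0.012), where control segment 1 had 209 and 210 CPM and control segment 2 had 37.6 and 34.0 CPM. Its contrast was 1.15 smaller in ligated tissue (adjusted p = 0.012). Apod, a lipocalin that carries small lipids, had 82.2 and 107 CPM in ligated segment 1 and 43.7 and 41.4 CPM in ligated segment 2 (1.16 ± 0.17, adjusted p = 0.025). Slc7a8, an amino acid transporter, had 88.4 and 87.0 CPM in ligated segment 1 and 53.4 and 57.9 CPM in ligated segment 2 (0.66 ± 0.13, adjusted p = 0.046), a contrast 1.64 smaller than in control tissue (adjusted p = 9.6e-04). It was the 1 edgeR call of 27 amino acid and carnitine transport genes (6 higher and 2 lower at an unadjusted p under 0.05, 2 and 1 by DESeq2). Of 24 tested serpin genes edgeR called 2 higher and 0 lower (7 and 0 at an unadjusted p under 0.05, 3 and 0 by DESeq2). Serpinf1 had 8.54 and 13.1 CPM in ligated segment 1 and 2.88 and 4.46 CPM in ligated segment 2 (1.56 ± 0.19, adjusted p = 0.011), with a contrast 1.62 above that of control tissue (adjusted p = 0.0045). Serpinb1a, at 1.19 and 1.60 CPM in ligated segment 1 and 0.337 and 0.365 CPM in ligated segment 2, also had a larger contrast, by 2.33 (adjusted p = 0.019). Of 23 tested genes of the Ly6, Lypd and Pate family edgeR called 2 higher and 0 lower (5 and 1 at an unadjusted p under 0.05, 2 and 0 by DESeq2). These were Ly6a and Ly6c1, whose close relatives can share their reads, higher by 0.58 and 1.30 on the log2 scale. Of 32 trypsin-like proteases DESeq2 called 3 higher, and the fit on the 6 ligated libraries 5 higher and 1 lower (Prss12). The 1 edgeR call over all 12 libraries was Prss56, with 36 and 76 counts in ligated segment 1 and none in ligated segment 2, at least 19.7-fold higher against a floor of 3 counts per library.

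Position genes, retinoid genes and growth signals gave a few calls, where 1.3% of all genes tested were called. Of 30 Hox genes Hoxc4 and Hoxa7 were higher and 0 lower (7 higher and 4 lower at an unadjusted p under 0.05; 2 and 0 by DESeq2). Hoxa7 had 11.5 and 15.4 CPM in ligated segment 1 and 5.16 and 6.21 CPM in ligated segment 2 (1.23 ± 0.24, adjusted p = 0.045). Hoxc4 had 2.36 and 2.60 CPM in ligated segment 1 and 0.829 and 0.852 CPM in ligated segment 2, a contrast 1.81 above that of control tissue (adjusted p = 0.016). Of 19 tested retinoid genes Aldh1a3 and Crabp1 were called higher and 0 lower (5 and 0 at an unadjusted p under 0.05, 2 and 0 by DESeq2). Aldh1a3, which makes retinoic acid, had 3.76 and 4.56 CPM in ligated segment 1 and 1.56 and 1.32 CPM in ligated segment 2 (1.53 ± 0.24, adjusted p = 0.021), and its contrast differed from that of control tissue by 1.39 (adjusted p = 0.023). Crabp1, which binds retinoic acid, rested on 66 and 27 counts in ligated segment 1 and 2 and 1 in ligated segment 2, a ratio of 31.4 with a 95% counting interval of 10.4 to 155. Rspo1, an enhancer of Wnt signalling, had 3.24 and 3.44 CPM in ligated segment 1 and 0.311 and 0.317 CPM in ligated segment 2 (3.40 ± 0.34, adjusted p = 0.0060). Of 37 tested growth factor ligands and receptors 1 was called higher (Fgfr4) and 1 lower (Vegfa, given below). At an unadjusted p under 0.05, 8 were higher and 2 lower, and DESeq2 called 4 higher and 1 lower. Fgfr4, a receptor of fibroblast growth factors, had 1.70 and 1.09 CPM in ligated segment 1 and 0.181 and 0.146 CPM in ligated segment 2 (adjusted p = 0.032).

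EdgeR over all 12 libraries called few genes lower in ligated segment 1: 17, against 115 by DESeq2 and 420 on the 6 ligated libraries. Vegfa, the growth factor of blood vessels, had 26.8 and 12.9 CPM in ligated segment 1 and 64.5 and 58.9 CPM in ligated segment 2 (-1.69 ± 0.20, adjusted p = 0.015). Control segment 1 had 198 and 161 CPM and control segment 2 had 111 and 84.4 CPM, the opposite order, and the contrasts differed by -2.57 (adjusted p = 0.0017). It was the 1 member that edgeR called, against 3 lower by DESeq2, of the glycolysis and hypoxia list, of which 7 had a positive and 20 a negative log2 fold change. In the fit on the 6 ligated libraries the call of Vegfa was lost (adjusted p = 0.11; 9.9e-14 to 0.27 over its alternatives). Tle2, a co-repressor of the Groucho family, had 4.27 and 3.53 CPM in ligated segment 1 and 10.6 and 7.09 CPM in ligated segment 2 (-1.16 ± 0.15, adjusted p = 0.011), and was higher in control segment 1 than in control segment 2 by 1.05 (difference -2.21, adjusted p = 4.9e-04). Myh13, a myosin heavy chain gene, had 2.66 and 2.32 CPM in ligated segment 1 and 7.83 and 8.21 CPM in ligated segment 2 (-1.67 ± 0.31, adjusted p = 0.041). Its values in ligated segment 3 were higher still, at 18.4 and 15.9 CPM. Its contrast in control tissue was -4.10, and the difference of 2.43 passed (adjusted p = 0.019).

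Smaller reductions were seen in Lama1, a laminin chain of basement membranes, with 17.7 and 19.8 CPM in ligated segment 1 and 32.6 and 28.2 CPM in ligated segment 2 (-0.70 ± 0.11, adjusted p = 0.024). Firre, a long noncoding RNA of the nucleus, had 103 and 88.6 CPM in ligated segment 1 and 163 and 139 CPM in ligated segment 2 (-0.66 ± 0.09, adjusted p = 0.016). Dapk1, a death-associated kinase, had 23.5 and 25.6 CPM in ligated segment 1 and 39.5 and 37.4 CPM in ligated segment 2 (-0.66 ± 0.13, adjusted p = 0.049), a contrast smaller in size by 0.76 than in control tissue (adjusted p = 0.022). Sgsm1, Prune2, Ccdc62 and the noncoding RNA Tbx3os2 fell by 1.08, 0.93, 0.91 and 1.35 on the log2 scale. Zmym6 and Trank1 fell by 0.56 and 0.46. Zmym6, Tle2 and Ccdc62 overlap other annotated genes. So do Pltp, Ube2c, Cfap43, Hydin, Dnah9, Hoxa7, Hmgcs1, Col3a1 and Top2a among the called genes named above. With the strand setting of the counting unknown, the counts of all these may hold reads of the genes they overlap. Gm10371, an uncharacterised gene, had 2 and 1 counts in ligated segment 1 and 52 and 27 in ligated segment 2, a ratio of 25.99 (95% counting interval 8.57 to 129) with segment 2 higher.

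For broad cellular programmes edgeR over all 12 libraries called 0 of 78 ribosomal protein genes (2 lower and 0 higher at an unadjusted p under 0.05), 0 of 75 genes of oxidative phosphorylation (7 lower and 0 higher), 0 of 30 p53 targets and apoptosis genes (2 higher and 0 lower) and 0 of 39 interferon response genes (14 higher and 0 lower). DESeq2 called 0, 0, 0 and 2 members of these lists, the 2 being higher, and the fit on the 6 ligated libraries called 6 interferon genes higher and the ribosomal protein gene Rps28 and the oxidative phosphorylation gene Ndufa7 lower. The 31 tested beta-defensins gave 0 calls (0 higher and 3 lower at an unadjusted p under 0.05; 3 lower by DESeq2), and their median of -0.57 was -0.22 without the batch 3017 and -0.91 without the batch 3097 library of ligated segment 2, and -1.17 without the batch 3017 library of ligated segment 1. Of 27 sperm and germ cell genes 0 were called (1 higher and 0 lower at an unadjusted p under 0.05; 1 higher by DESeq2), where 25 were lower in control segment 1 than in control segment 2. Their summed level was 71.1 and 68.5 CPM in ligated segment 1 and 82.1 and 67.9 CPM in ligated segment 2.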

How the data were processed

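The authors deposited raw counts per gene, as whole numbers with no normalization, in a table per sequencing batch. Per the submitters' processing notes, Trim Galore 0.6.0, cutadapt, FastQC and STAR 2.7.0e were used, with GRCm38 (mm10); the sources used here do not give how reads were counted, on which strand, or against which annotation release. The 55536 identifiers all matched GENCODE mouse release M21, and 0 lines lacked a gene.

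Counts were tested with edgeR 4.0.16 in R 4.3.3 (limma 3.58.1; TMM scaling, filterByExpr with a minimum count of 10, robust glmQLFit, two-sided glmQLFTest, group and batch, all 12 libraries, 5 residual degrees of freedom), with Benjamini-Hochberg adjustment over 19213 genes and a threshold of 0.05. The design text gives batch, which pairs the libraries; 1798 genes differed by batch. Within-batch ratios use CPM plus 0.5. Tested on simulated data for this comparison (18801 genes), 73% of 2-fold and 100% of 4-fold changes were recovered, with 6 false calls. The simulation gave each gene the trended spread for its level and no batch effect. These shares therefore do not hold for genes with a wider spread: Cst12 and Crisp1 differed by more than 4-fold and were not called. Replicates differed by more than sampling noise (chi-square per degree of freedom 24.7 in ligated segment 1, 53.1 in ligated segment 2). Alternatives were DESeq2 1.42.0, other scalings and filters, no batch term, fewer libraries and each library left out.

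The comparison, the 52 gene lists and the rules were chosen with earlier results of these data known, and the lists carry no test of their own. Named genes are the 12 largest and 12 smallest log2 fold changes above 5 CPM, the 8 most abundant with at least a 2-fold change in each direction, a list of sentinel genes, and in each list up to 3 called members per direction and the 2 most abundant; further list members, Defb30, Epp13, Nxpe2, Cst12 and Adam28 were named after their values were seen. Not all genes the rule names are printed. Floors are 3 counts per library. Promoter sequences are from RefSeq.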

Additional observations from a re-analysis of the deposited data

Results flagged for a closer look

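Each value here is the difference of the segment contrast, on the log2 scale: segment 1 minus segment 2 in ligated tissue, minus the same in control tissue. The genes named above whose difference passed edgeR's test are given because the contrast then differs between ligated and control tissue; no group has enough libraries for a test of outlying samples.

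The ciliary genes with a higher contrast in ligated than in control tissue were Ccdc153 (2.17), Tekt1 (4.53), Cfap43 (3.10), Mcidas (1.65) and Rsph1 (0.98). Hydin (7.25), Fam183b (6.16) and the protease gene Prss56 (6.43) also passed, with fitted values that depend on the few counts of ligated segment 2. Mcidas and Rsph1 were not called between the ligated segments, and their control levels were lower in segment 1.

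Matrix, complement and serpin genes with higher contrasts in ligated than in control tissue were Dcn (1.58), Igfbp6 (1.36), Bgn (0.83), Col3a1 (0.77), C7 (2.04), Serpinf1 (1.62) and Serpinb1a (2.33). Clec7a (1.18), Ly6a (0.67), Pltp (0.65), Krt14 (0.63), Krt5 (0.61), Acta2 (0.58), Aldh1a3 (1.39) and Hoxc4 (1.81) passed in the same direction. Krt5 and Acta2 were not called between the ligated segments (log2 fold changes 0.16 and -0.08), and their control contrasts were negative (-0.45 and -0.66).

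Genes whose control contrast was negative and whose ligated contrast was smaller in size were Clu (3.13), Ggt1 (2.59), Foxi1 (2.25), Spink12 (4.13), Gpx5 (0.83), Myh13 (2.43) and Dapk1 (0.76). Of these, Myh13 and Dapk1 kept a called negative contrast between the ligated segments. Genes with a lower contrast in ligated tissue were Ros1 (-1.38), Etv4 (-7.37), Ovch2 (-3.37), Cftr (-3.66), Was (-2.73), Cpe (-1.15), Slc7a8 (-1.64) and Tie1 (-0.92). The order of the segments was reversed, with both contrasts called, in 8 genes, 6 of them higher and 2 lower in ligated segment 1; those named here are Dcn, given above, Vegfa (-2.57) and Tle2 (-2.21). For Crisp1 (-10.01) the ligated contrast was not called.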

How the results depend on the processing

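The number of genes called between the ligated segments depended on the spread used and on single libraries. All 249 called genes that were tested kept their direction under each alternative. The alternatives reuse the libraries by which these genes were chosen, so a kept direction is no independent check. The share of calls that were higher in segment 1 moved, from 93.17% in the main fit to 61.29% on the 6 ligated libraries. The count was 527 (412 higher, 115 lower, 351 at least 2-fold) with DESeq2, 112 (105, 7, 93) with a stricter filter, 1194 (775, 419, 560) on the 4 libraries compared alone and 1085 (665, 420, 530) on the 6 ligated libraries. Without the replicate block, that is with batch left out, it was 112 (111, 1, 104). The 39 genes lower with no filter on low counts compare with 17. Leaving out 1 ligated library gave 0 to 192 genes in all, 0 to 182 higher, 0 to 10 lower and 0 to 170 at least 2-fold. The control contrast gave 5046 genes on its 4 libraries and 4749 (without the batch 3017 library of control segment 1) to 8214 when 1 library was left out. The difference of the contrasts gave 2255 genes without the replicate block and 1614 to 4655 when 1 library was left out, with the lowest counts without the batch 3017 library of control segment 1 (1614), either library of ligated segment 2 (1784 for batch 3017, 1703 for batch 3097), the batch 3017 library of ligated segment 1 (1767) or the batch 3097 library of control segment 1 (2325).

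Of the 77 called genes named above, 0 reversed under any alternative; DESeq2 lost 0, RLE scaling 2, library totals 3, the 6 ligated libraries 2 (Vegfa and Col3a1) and the 4 libraries compared 3 (Top2a, C7 and Vegfa). The stricter filter ended 27 of these calls, the fit without the block 38, and leaving out 1 library 28 to 77. The labels' replicate numbers were not tied to batches, so libraries were paired by batch only; deviations of the ligated libraries of a batch correlated at 0.225. Genes with under 3 counts in a group are limited by depth, and counting intervals cover counting error only.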

Other observations

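With the spread taken from the 6 ligated libraries, some lists gained members that the fit over all 12 libraries did not call. Cholesterol synthesis gave 12 of 24 higher in ligated segment 1, macrophages and dendritic cells 10 of 26, fibroblasts and matrix 12 of 29, endothelium 8 of 19 and Hox genes 7 of 30 with 1 lower. Interferon response gave 6 of 39 higher, namely Ifit1, Ifit3, Isg15, Oasl2, Usp18 and Bst2, where edgeR over all 12 libraries called 0. Glycolysis and hypoxia gave 0 higher and 4 lower (Aldoa, Pkm, Bnip3 and P4ha1) of 27, and Vegfa was not among them. These genes were read after the values of the main comparison were known.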
